A study of Danio rerio with 4 samples.

Results

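Control-only sites are stretches of the genome that carried an H3K27ac peak in both control libraries and in neither *Epi/FB:dnAP-1* library. The 4 deposited peak lists were merged into 51678 sites wherever peaks overlapped by at least 1 bp. Chromosomes 1 to 25 were kept, and the long arm of chromosome 4 from 30 Mb onward and the 1 Mb inside the first and last peak of each chromosome were left out. Of the 40954 sites that remained, 1149 were control-only, together 5.04 Mb, and these are the members described here. They made up 2.81% of the sites, a share that the rule itself fixes and from which nothing is read. The members were chosen by the peak calls of these same 4 lists, so their presence, width and signal are given as descriptions without a test. All 4 libraries came from noncardiomyocytes (nonCMs) of the injury area of adult zebrafish hearts, taken 7 days after apex resection, 2 libraries per group.

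The *Epi/FB:dnAP-1* fish carried *TgBAC(tcf21:Cre-ERT2)* and a transgene in which the *ubb* promoter drives a Flag-tagged dominant-negative AP-1 (dnAP-1) once Cre has removed a loxp-flanked dsRed cassette. They were given 4-hydroxytamoxifen before resection, so that dnAP-1 was limited to cells where *tcf21* drives Cre, which are epicardial cells and fibroblasts (Epi/FBs). The labels write the mark as H3R27ac, read here as the H3K27ac of the study. They shorten the genotype above to FB:dnAP-1 and add the tag ROSL_T in brackets, which the sources used here do not explain. The controls of such inducible lines were, in the methods, double transgenic fish given ethanol vehicle. The sample labels call the 2 control libraries CTRL and, in brackets, WT, and so do not settle whether these fish carried the transgenes. Strain, age beyond adult, and the number of hearts behind a library are not given in the sources used here. Whether replicates came from separate fish is not stated beyond the term biological duplicates. The libraries hold all nonCMs, of which Epi/FBs are only a part, so fewer cells of a type and less acetylation per cell cannot be told apart. Gene coordinates of GRCz11 were not used here, and the labelled cell type was therefore not checked against marker loci.

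H3K27ac is the acetylation of lysine 27 of histone H3, a mark of active promoters and enhancers. AP-1 is a dimer of Fos, Jun and related leucine zipper proteins that binds enhancers after injury or inflammatory signals, often beside other factors. A dominant-negative AP-1 blocks that activity. In the zebrafish heart the epicardium and fibroblasts respond to injury by entering an activated state in which they make extracellular matrix and signals for the regenerating muscle. The control-only sites address where acetylation was called in control wounds and not when AP-1 was inhibited in Epi/FBs.

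The whole series had 1572 control-only sites, and those that the rule left aside lay in 3 places. Unplaced scaffolds and the mitochondrial genome held 163, the chromosome 4 long arm 174, and the chromosome ends 86. On either side of the limits the values ran on without a gap. The member nearest to an end lay 1.008 Mb from it, and the nearest site left out lay 0.9845 Mb from it. On chromosome 4 the last member started at 29.75 Mb, and the next control-only site, left out, at 30.12 Mb. The opposite class, *Epi/FB:dnAP-1*-only sites, numbered 3014 of the same 40954 sites (7.36%), and 14114 sites (34.5%) were called in all 4 lists.

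Peaks at control-only sites were lower than those at shared sites. Coverage in each list came in steps, the largest unit of which every peak maximum is a whole multiple, and 1 step was 1.26 in control replicate 1, 1.38 in control replicate 2 and 0.68 in both *Epi/FB:dnAP-1* lists after the scaling by the authors. The peaks at members reached a median maximum of 12.6, or 10 steps, in control replicate 1, with a range of 5 to 44 steps. In control replicate 2 the median was 12.42, or 9 steps, with a range of 4 to 38. At sites in all 4 lists the same control libraries reached medians of 25 and 19 steps. The height of the members was thus below that of shared sites in each control library, as the plot of height and width shows. Only 14 members reached 20 steps or more in both control lists, and 330 stayed below 10 steps in both.

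**Figure D1:**
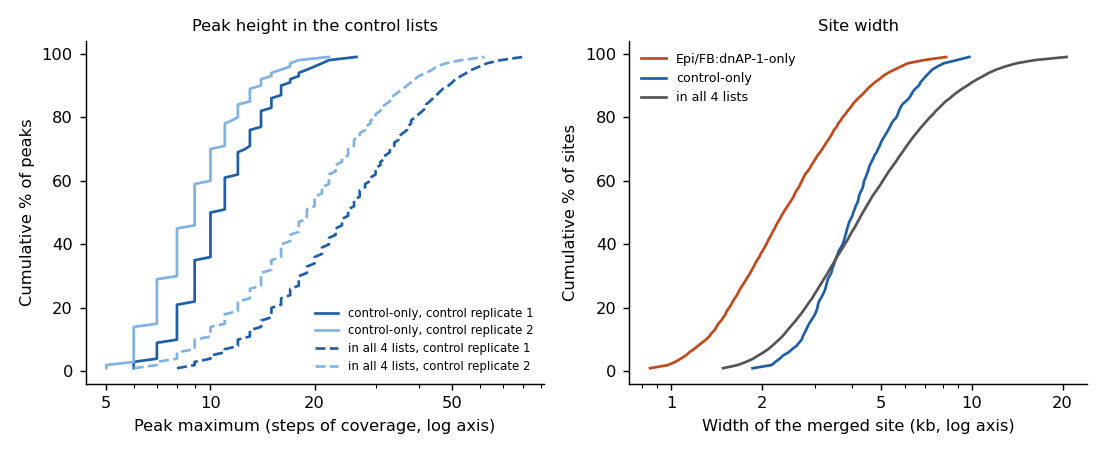
Left, cumulative percent of peaks against peak maximum in steps of coverage (log axis) for the 2 control lists, with control-only sites as solid and sites in all 4 lists as dashed lines. Right, cumulative percent of merged sites against width in kb (log axis) for control-only, *Epi/FB:dnAP-1*-only and shared sites. Medians of the control-only peaks lie at 10 and 9 steps against 25 and 19 for shared sites, and median site widths are 4028, 2362 and 4334 bp. Shared sites merge peaks of 4 lists and the other classes peaks of 2.

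Width set them apart less from shared sites than height did. The median merged width of a member was 4028 bp, with the middle of the distribution between 3225 and 5195 bp, against 4334 bp for sites in all 4 lists and 3416 bp over all 40954 sites. *Epi/FB:dnAP-1*-only sites were narrower, with a median of 2362 bp. A shared site merges peaks of 4 lists and a member peaks of 2, so their merged widths are not directly comparable. At the level of single peaks, the median width at members was 3407 bp in control replicate 1 and 2896 bp in control replicate 2. At shared sites it was 2922 and 2613 bp, so the median control peak was wider at members. The wide end went the other way, with a 90th percentile of 5305 and 4508 bp at members and 6283 and 5243 bp at shared sites. Signal within the peaks at members was flatter than at shared sites. The mean signal per base was 4.93 and 4.76 in the 2 control libraries, against 8.73 and 8.12 at shared sites, and the maximum was 2.63 and 2.51 times the mean, against 3.33 and 3.04. Weak shared sites, those under the 50th percentile of total signal in both control lists, numbered 2215 and had another shape. Their control peaks were narrower, at 2171 and 1958 bp, and taller, at 18 and 14 steps. Members and weak shared sites had like median percentiles of total signal (32.1 and 33.1 against 28.6 and 30.6), but at members that signal was spread over more sequence. Total signal sums coverage over width and decides which peaks a list keeps. At like totals a lower peak is therefore a wider one, and width and height here are not separate observations. Sites called in a single control list were close to members in shape. The 4607 sites in control replicate 1 alone had a median peak width of 3506 bp, a median maximum of 9 steps and a maximum of 2.58 times the mean, and the 4080 in control replicate 2 alone had 2864 bp, 8 steps and 2.47 times. The low, flat shape was therefore shared by calls that only 1 control library made.

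Total signal adds up the coverage at every base of a peak, and it was low at most members but not at all of them. Its median percentile within the list was 32.1 in control replicate 1 and 33.1 in control replicate 2, against 68.2 and 67.3 for shared sites. A share of 24.7% of members in control replicate 1 and 23.7% in control replicate 2 had a total within 10% of the weakest peak of that list. Of all peaks in the list, between 15.1% and 18.1% lay within that margin in control replicate 1. In control replicate 2 it was between 13.8% and 17.5%. The weakest member stood at 13001 where the list of control replicate 1 ended at 12993, and at the very end of the list, 10480, in control replicate 2. At the upper end, 129 members were at or above percentile 50 in both control lists, 29 at or above percentile 75, and 3 at or above percentile 90.

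Among the 16554 sites called in both control lists, 6.94% were members, and this share fell with strength. It was 20.1% of 2870 sites whose lower control percentile was under 20 and 0.345% of 3765 sites at 80 or above. Height separated them further among sites of like lower control percentile, though the percentile in the other control list was not held equal. Within the band of lower percentiles from 20 to 40, members were 39.7% of 302 sites that stayed under 8 steps in a control list and 1.24% of 161 sites that reached 24 steps or more in both. Between members and shared sites lay 1291 sites with a peak in only 1 *Epi/FB:dnAP-1* list. Control peaks at these sites had median percentiles of 39.1 and 37.3 and median maxima of 12 and 10 steps, close above those of members. The *Epi/FB:dnAP-1* peaks there were weak too, with median percentiles of 27.1 in replicate 1 and 22.9 in replicate 2.

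The absence of a member from an *Epi/FB:dnAP-1* list says that signal there stayed under the threshold of that list. The weakest peak kept had a total of 9203 in *Epi/FB:dnAP-1* replicate 2, the higher of the 2 lists on the deposited scale, and all 1149 members exceeded this value in both control lists, since the control thresholds were higher. The median of the lower control total was 1.43 times that limit and the largest 6.59 times. With the scaling removed the order was different. In steps the limit of *Epi/FB:dnAP-1* replicate 2 was 13534, and only 114 members (9.92%) exceeded it in both control lists, while 607 exceeded it in neither. Many other control peaks were under it too. The limit fell between percentiles 37.2 and 39.0 of the whole list of control replicate 1. In control replicate 2 it fell between percentiles 60.9 and 62.9. How many of all sites in both control lists exceeded it was not counted. For those 607 sites, control coverage as deep as that measured would not have entered the list of *Epi/FB:dnAP-1* replicate 2 if counted in steps. The weakest peak kept in *Epi/FB:dnAP-1* replicate 1 was lower, at 11015 steps, and members were not counted against it. Median totals of members were 12810 steps in control replicate 1 and 9611 in control replicate 2. A step count grows with sequencing depth, which is unknown here, so neither scale puts the libraries on a footing known to be equal. The balance of the classes turned with the scale. Applying 1 common threshold to all lists in steps left 154 control-only sites beside 6004 of the opposite class, and applying 1 on the deposited scale gave 1845 beside 586.

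**Figure D2:**
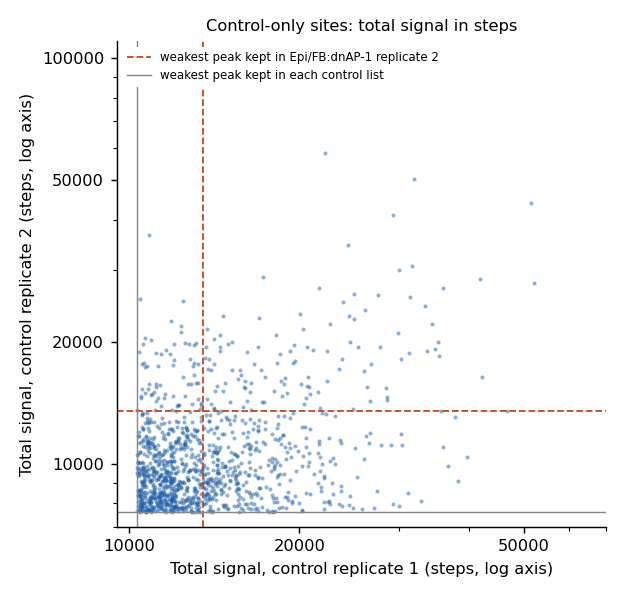
Each point is 1 of the 1149 control-only sites, with its total signal in steps of coverage in control replicate 1 (x, log axis) and control replicate 2 (y, log axis). Grey lines mark the weakest peak of each control list, 10312 and 7594 steps, and dashed lines the 13534 steps of the weakest peak of *Epi/FB:dnAP-1* replicate 2. Of the points, 114 lie above the dashed line on both axes.

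The 114 members past that limit were spread over 24 chromosomes, with at most 10 on any of them. They were wider than the members as a whole, with a median of 5723 bp, and their median lower control maximum was 11 steps. Their lower control percentile had a median of 64.7 and went down to 38.8. A limit on total signal, which sums coverage over the width of a peak, itself favours wide sites and high percentiles. They lay a median of 27.5 kb from a shared site, and 16 of them were within 50 kb of another of the 114.

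The strongest members, taken by the lower of their control percentiles, were wide, from 6562 to 12576 bp among the first 5. The percentile ranks total signal, which sums coverage over width, so this order itself favours wide sites. The site at chr22:5996477-6008017 (11541 bp) had totals of 64956.8 and 60605.4 in control replicates 1 and 2, at percentiles 95.6 and 96.9, but maxima of only 18 and 16 steps. *Epi/FB:dnAP-1* replicate 2 had a peak 0.024 kb away from it and replicate 1 a peak 1.17 kb away, while the nearest site in all 4 lists was 41.3 kb away. The next, at chr22:31719913-31729249, stood at percentiles 92.5 and 90.6 with maxima of 12 and 11 steps. Peaks of *Epi/FB:dnAP-1* replicates 1 and 2 lay 6.86 and 25.4 kb from it. The site at chr11:44384058-44396633 stood at percentiles 95.7 and 90.1, the one at chr3:42451446-42458110 at 89.4 in both lists, and the one at chr4:26209780-26216341, on the retained part of chromosome 4, at 87.5 and 86.6. In the same order, the nearest *Epi/FB:dnAP-1* replicate 1 peaks were 3.42, 0.997 and 1.20 kb away. Those of replicate 2 were 13.5, 19.0 and 101 kb away. All 5 exceeded the limit of 13534 steps in both control lists.

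A few members were tall instead, and the tallest were picked after the values had been seen. At chr18:7270428-7273254 the maximum was 55.44 in control replicate 1 and 52.44 in control replicate 2, or 44 and 38 steps, over 2827 bp. The maxima of the 2 libraries lay 7 bp apart, and the nearest *Epi/FB:dnAP-1* peaks were 10.8 and 30.0 kb away. At chr5:62245520-62248048 the maxima were 42.84 and 51.06, placed 1 bp apart, with the nearest *Epi/FB:dnAP-1* peaks at 68.9 and 70.8 kb. The 14 members of at least 20 steps had a median width of 2332 bp, lay on 10 chromosomes and were a median of 42.4 kb from a shared site. Among them was the narrowest member of all, chr15:6022122-6023195 (1074 bp), with maxima of 28.98 and 27.60.

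The 2 control libraries matched less closely at members than at shared sites. Their peaks overlapped by a median Jaccard index of 0.643, near the 0.663 of shared sites and below the 0.711 of weak shared sites. A single peak from each control list made up 1119 members. The position of the maximum within the site was less reproducible. The maxima of the 2 libraries lay a median of 470 bp apart at members, 85.0 bp apart at shared sites and 97.0 bp apart at weak shared sites. Across the 1149 members the log2 maxima correlated with r = 0.573 (Spearman's rho = 0.500), against r = 0.873 across shared sites and 0.705 across weak shared sites. Members are not independent replicates, and their range of heights is narrower than that of shared sites. Percentiles of the same member differed by a median of 18.4 points between the control lists. The gap was 9.59 points at shared sites and 12.7 at weak shared sites. The percentiles of the 2 control lists correlated with r = 0.268 across members, 0.648 across shared sites and 0.101 across weak shared sites. Percentiles of weak shared sites are all under 50 by choice. Control replicate 1 was the higher in 570 members and control replicate 2 in 579.

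Members were found on every chromosome, between 29 and 64 of them, with a median of 47. As a share of the sites on a chromosome they ranged from 2.10% on chromosome 13 to 4.64% on the retained part of chromosome 4, beside the 2.81% over all chromosomes. The density was 1.69 members per Mb there, against a median of 0.903 over the 25 chromosomes and a lowest value of 0.670 on chromosome 10. Chromosome 4 thus led by both measures even without its long arm, whereas *Epi/FB:dnAP-1*-only sites made up 7.01% of the sites on it, close to their 7.36% overall. Chromosome 9 came next among the shares of members at 3.74%, followed by chromosome 22 at 3.60%.

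Control-only sites lay farther from shared sites than *Epi/FB:dnAP-1*-only sites did, and about as far as sites called in a single control list. The median distance from a member to the nearest site in all 4 lists was 24.6 kb, against 14.6 kb for *Epi/FB:dnAP-1*-only sites and 11.4 kb between neighbouring shared sites. It was 25.6 kb for sites in control replicate 1 alone and 24.6 kb for sites in control replicate 2 alone. For sites in *Epi/FB:dnAP-1* replicate 1 or 2 alone it was 18.6 and 13.3 kb, and for sites in both control lists and 1 *Epi/FB:dnAP-1* list 15.5 kb. A shared site lay within 10 kb of 30.9% of members, while 348 members (30.3%) had none within 50 kb and 181 (15.8%) none within 100 kb. The farthest, at chr15:18829809-18834184, was 698 kb from the nearest shared site, with maxima of 7 and 8 steps and percentiles of 40.8 and 13.7. It was followed by chr1:42773556-42779697 at 650 kb and chr22:33823358-33828644 at 600 kb, and at the last of these the nearest peaks of both *Epi/FB:dnAP-1* lists were also 600 kb away. Seen from the *Epi/FB:dnAP-1* lists, 118 members had a peak of either list within 1 kb and 151 had none within 50 kb. The nearest such peak was 11 bp from a member.

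**Figure D3:**
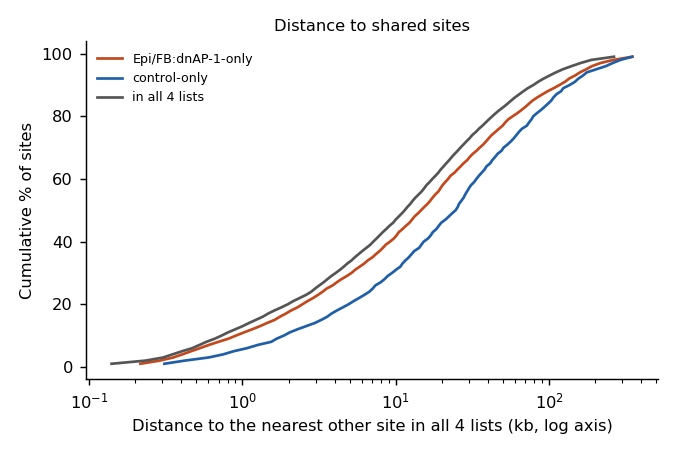
Cumulative percent of sites against the distance in kb (log axis) to the nearest other site called in all 4 lists, for control-only, *Epi/FB:dnAP-1*-only and shared sites. Of these 3 classes, the curve of control-only sites lies farthest to the right, with medians of 24.6, 14.6 and 11.4 kb.

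The sites immediately before and after a member in chromosome order were also counted. Sites called in a single control list made up 28.0% of these neighbours, against 21.2% of the neighbours of all 40954 sites, and other control-only sites made up 5.74% against 2.81%. Sites in all 4 lists were 29.6% of the neighbours of members against 34.5%, and *Epi/FB:dnAP-1*-only sites 4.83% against 7.36%. The neighbours of members thus held a larger share of sites called only in controls than the neighbours of all sites, and these calls come from the same control libraries as the members.

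Most members stood alone. Joining members less than 50 kb apart gave 1026 runs, of which 936 were single sites, 75 were pairs and 15 had 3 or more. In all, 213 members (18.5%) were in a run with another. The corresponding share of *Epi/FB:dnAP-1*-only sites was 37.6%, over 3014 sites, and the part that their larger number has in this share was not tested. Of the 6 runs with the most members, 3 had no *Epi/FB:dnAP-1* peak, and the highest *Epi/FB:dnAP-1* coverage among the others was 19.6%, in a run on chromosome 3. Members hold no such peak by the rule, which keeps this coverage low. Runs of equal number were ordered by summed total signal. Of the runs of 4 members left out by this order, that on chromosome 4 had 0% in both *Epi/FB:dnAP-1* lists. The other, on chromosome 24, had 14.5% and 7.94%.

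The largest run lay at chr8:30837601-30914205, a stretch of 76.6 kb with 9 members among its 10 sites and no site in all 4 lists. Peaks covered 47.4% and 47.5% of it in control replicates 1 and 2 and 0% in both *Epi/FB:dnAP-1* libraries. The members in it were 2865 to 6853 bp wide, and their maxima ran from 9 to 18 steps in control replicate 1 and from 7 to 18 in control replicate 2. The strongest, chr8:30890646-30897498, stood at percentiles 85.6 and 77.4, and 4 of the 9 exceeded 13534 steps in both control lists. Nearest shared sites were between 49.5 and 106 kb from these members.

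The second run, chr15:9739292-9877997, was longer (139 kb) with 7 members among 14 sites. Control coverage was 39.8% and 54.6%, and *Epi/FB:dnAP-1* coverage was 1.56% and 8.76%. It held the widest member, chr15:9750310-9764838 (14529 bp), where the control libraries differed, with percentiles of 72.5 in replicate 1 and 98.5 in replicate 2 and peak widths of 6020 and 13122 bp. The third, chr14:11600798-11639409, packed 5 members and no other site into 38.6 kb. Control peaks covered 55.3% and 53.2% of it and *Epi/FB:dnAP-1* peaks none. Its members reached 12 to 22 steps in control replicate 1 and 13 to 17 in control replicate 2. A further run of 3 members, chr14:11370842-11412915, lay at lower coordinates of the same chromosome, with control coverage of 34.9% and 38.3% against 9.45% and 3.86%. Within each of these runs, both control values exceeded both *Epi/FB:dnAP-1* values. The choice of members favours this, since no *Epi/FB:dnAP-1* peak can lie in a member, though such peaks could lie between members.

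**Figure D4:**
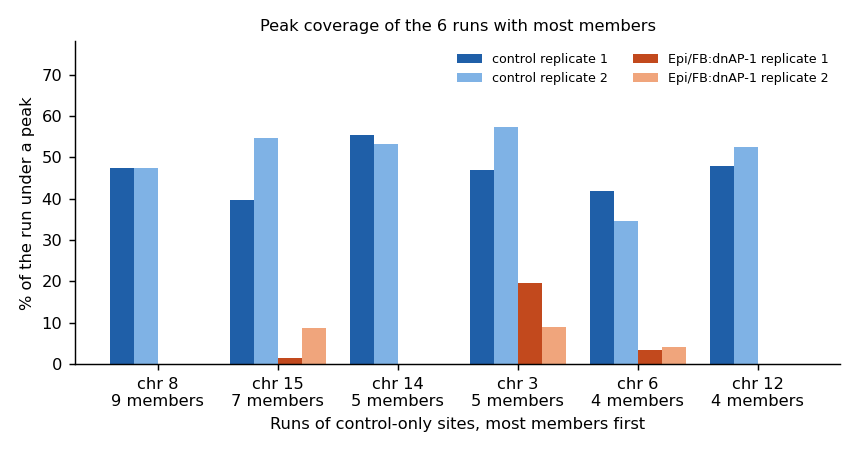
Percent of each run under a peak, for the 6 runs with the most control-only sites less than 50 kb apart, in the 4 libraries (bars, linear axis from 0). Control bars lie between 34.7% and 57.2%, and *Epi/FB:dnAP-1* bars between 0% and 19.6%. Runs of equal number were ordered by summed total signal, and members hold no *Epi/FB:dnAP-1* peak by selection.

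Beyond the members themselves the libraries differed little. In the 50 kb on either side of members, with all members taken out (102.7 Mb), peaks covered 10.4% of the sequence in control replicate 1, 8.73% in control replicate 2, 8.79% in *Epi/FB:dnAP-1* replicate 1 and 9.67% in *Epi/FB:dnAP-1* replicate 2. The mean of the controls was 9.57 ± 1.2% (SD, n = 2), and that of *Epi/FB:dnAP-1* was 9.23 ± 0.62% (SD, n = 2). Their difference of 0.341 percentage points was smaller than the spread between replicates, the values of the groups overlapped, and its sign turned to −0.983 without *Epi/FB:dnAP-1* replicate 1, to −2.26 without control replicate 1 and to −1.09 without control replicate 2. Leaving out a library also changes which sites count as control-only. In the nearest 10 kb the coverage was 10.1% and 8.55% against 8.33% and 8.73%, and within 200 kb it was 9.09% and 7.66% against 7.96% and 8.83%. Over the whole span of the chromosomes examined it was 7.53% and 6.35% against 6.56% and 7.30%. Members thus lay in sequence with more peaks than average in each of the 4 libraries, which was not particular to them. Within 50 kb of *Epi/FB:dnAP-1*-only sites, coverage was 11.1% and 9.45% in the controls and 9.68% and 11.1% in *Epi/FB:dnAP-1*. Each value was above that of the same library beside members.

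**Figure D5:**
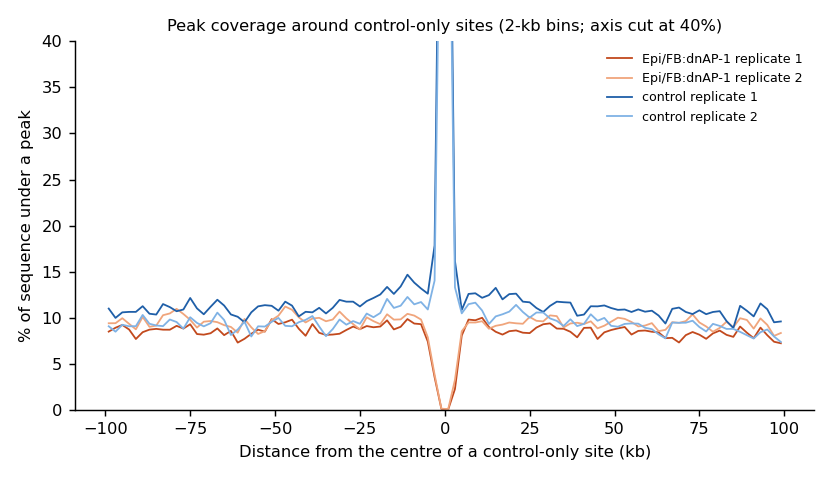
Percent of sequence under a peak in bins of 2 kb against the distance in kb from the centre of the 1149 control-only sites, for the 4 libraries, with the vertical axis cut at 40%. At the centre the control lists are high and the *Epi/FB:dnAP-1* lists at 0 by selection, and away from it, neighbouring members included, control replicate 1 is the highest line in most bins, while control replicate 2 is above both *Epi/FB:dnAP-1* lines in most bins near the centre and crosses them farther out.

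Signal at shared sites beside members was compared in the same way. The 1010 shared sites nearest to members had median maxima of 32.76 in control replicate 1, 27.60 in control replicate 2 and 36.04 in both *Epi/FB:dnAP-1* libraries. The median log2 difference, control minus *Epi/FB:dnAP-1*, was −0.30 on the deposited scale, against −0.35 over all 15741 shared sites on chromosomes 1 to 25 and −0.41 at the 2426 nearest to *Epi/FB:dnAP-1*-only sites. Control was higher at 26.8% of the shared sites nearest to members and at 23.0% of all of them.

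Genes could be attached to members only through the study's table of open chromatin regions (OCRs) of Epi/FBs that overlap regeneration enhancers, read as GRCz11. Of its rows, 1999 were used, and the gene is the one that the study assigned to an OCR. OCRs fell into 10 members, assigned to *nrp1a*, *efemp2a*, *angptl2a*, *nog2*, *mbnl1*, *rnls*, *mir212*, *zgc:103438*, *si:dkey-253d23.3* and *si:dkey-220k22.3*. The OCRs inside members were 0.500% of the 1999, whereas 31.3% lay under a peak of any list. Members made up 2.81% of the 40954 sites and 5.04 of their 166.9 Mb. Members thus did not stand out by the OCRs they held, and the genes are named as a description. Each of these genes is on the same chromosome in the gene table of GRCz12tu as the member, which does not check the coordinates within a chromosome.

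Among the genes of receptors, matrix and secreted factors, *nrp1a* encodes a neuropilin, a co-receptor for vascular endothelial growth factors and semaphorins. The member at its OCR, chr24:1610507-1614957, had maxima of 13.86 and 9.66, percentiles of 30.5 and 55.0, and no shared site within 167 kb. The peaks of both control libraries were nearly of one width here, 4199 and 3976 bp. *efemp2a* encodes a fibulin-type glycoprotein of the extracellular matrix that takes part in elastic fibre assembly in mammals. Its member, chr14:30702676-30705088, was narrow (2413 bp) and taller, with maxima of 20.16 and 23.46 at percentiles 18.1 and 51.8, and the nearest *Epi/FB:dnAP-1* peaks were 18.0 and 18.1 kb away. *nog2* encodes a noggin, a secreted antagonist of bone morphogenetic proteins. At chr24:38871170-38874007 the maxima were 26.46 and 17.94, placed 4 bp apart in the 2 libraries, while the total reached percentile 31.6 in control replicate 1 and only 6.62 in control replicate 2. *angptl2a* encodes a secreted angiopoietin-like protein, and its member, chr5:4855083-4859100, was low, with maxima of 8.82 and 6.90, or 7 and 5 steps. None of these 4 members exceeded 13534 steps in both control lists.

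The other OCR members were of different kinds. *mir212* is a microRNA gene that lies between *hic1* and *dph1*, its nearest protein-coding neighbours in GRCz12tu. The member at its OCR, chr15:25816095-25827547, was broad (11453 bp) and strong, at percentiles 87.7 and 77.8, with shared acetylation 2.61 kb away. The member assigned to *zgc:103438*, chr19:42571449-42581318, stood at percentiles 88.8 and 79.8 and lay 3.87 kb from a shared site. The member assigned to *si:dkey-253d23.3*, chr22:9773595-9778335, stood at 65.2 and 77.7 and had no shared site within 60.3 kb. These were the 3 of the 10 that exceeded the limit in steps in both control lists. *mbnl1*, which encodes a regulator of alternative splicing, had a member at chr2:47731428-47734947 with maxima of 12.60 and 8.28, and an *Epi/FB:dnAP-1* replicate 1 peak only 0.198 kb from it. *rnls* encodes renalase, a flavin-dependent oxidase, and its member at chr12:17306478-17309711 had maxima of 26.46 and 15.18. The member of *si:dkey-220k22.3* reached 8.82 and 11.04.

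A list of 70 genes of cell adhesion, axon guidance, extracellular matrix, AP-1 and Tead, and of the epicardial and ligand genes of the study was set beside the members. The table assigned 110 OCRs to them. Of these OCRs, 1 lay inside a member, that of *nrp1a*, and 8 lay within 50 kb of a member, assigned to 6 genes. These were 0.909% and 7.27% of the OCRs of the list, beside 0.500% (10) and 9.60% (192) of all 1999 OCRs, so the list did not stand out from the table. Of the matricellular genes, *ccn2b* had an OCR 15.7 kb from a member at chr19:13804666-13811411 with percentiles of 82.8 and 65.6, and *ccn5* an OCR 42.3 kb from a weak member at percentiles 23.9 and 28.6. Of the guidance and adhesion receptors, *robo1* had an OCR 7.44 kb from a member with maxima of 11.34 and 12.42, and *ptprga* had OCRs 31.9 and 47.2 kb from a member with maxima of 22.68 and 12.42. *adam17a*, which encodes the sheddase of membrane-bound TNF in mammals, had an OCR 40.2 kb from a member at percentiles 1.72 and 1.55. No peak of any list covered the OCRs of *adam17a*, *ccn2b*, *ccn5*, *ptprga* and *robo1* named here. Over the whole list, OCRs under a peak numbered 16 of 110 in control replicate 1, 17 in control replicate 2, 20 in *Epi/FB:dnAP-1* replicate 1 and 16 in *Epi/FB:dnAP-1* replicate 2, so the groups overlapped. Over all rows of the table they were 361 and 299 in the controls and 393 and 377 in *Epi/FB:dnAP-1*. There the groups did not overlap, with both *Epi/FB:dnAP-1* counts above both control counts, and this difference was not tested.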

How the data were processed

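H3K27ac CUT&Tag libraries of nonCMs were grouped by their labels. Per the methods and labels, adaptors were removed (cutadapt 2.7), reads were mapped to GRCz11 (Bowtie2 2.2.5), and unmapped and duplicate reads were dropped (SAMtools 1.9, Picard). The authors then scaled the coverage of each library by a ChIPseqSpikeFree factor and called peaks with SEACR, which keeps the regions of highest total signal of each library. The methods also name MACS2 here. The values the authors deposited are signal, given as total and maximum coverage of a peak. Depth is unknown, since no read totals come with the lists, and no counting interval was computed. The *Epi/FB:dnAP-1* lists held 38429 and 32978 peaks and the control lists 32638 and 33076, and a list covered 102 to 118 Mb.

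Peaks were merged across lists, and percentiles were taken within a list. The counting of sites, distances and flanks was tested on simulated lists. No test was run between groups, because the calls chose the members, and 2 libraries against 2 allow no two-sided exact permutation p below 0.333. The members and the gene list were chosen with earlier results of these data known. Regions named in full were the 5 of highest lower control percentile, the 3 runs of most members, the 3 farthest from shared sites, the widest, the narrowest and those holding an OCR. Ties among runs were ordered by summed total signal. The table of OCRs was read as GRCz11, because 31.3% of its OCRs then lay under a peak, against 18.2% with the other coordinates it gives. Its fold changes and p-values were not used. The alternatives were other overlap, merging, threshold, position and flank settings, and each library left out. Analyses ran in Python 3.11.15 (numpy 2.4.6, pandas 2.3.3, scipy 1.17.1), with plots drawn by matplotlib 3.10.9.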

Additional observations from a re-analysis of the deposited data

How the results depend on the processing

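The number of control-only sites depended most on the threshold. It was 154 with 1 threshold for all lists in steps, 1845 with 1 on the deposited scale and 582 with the top 50% of each list. For sites only in *Epi/FB:dnAP-1* the same settings gave 6004, 586 and 1435. Leaving out 1 library gave 1683 to 5870 control-only sites, under a looser rule for the group that lost it: 5417 without control replicate 1, 5870 without control replicate 2, 1966 without *Epi/FB:dnAP-1* replicate 1 and 1683 without *Epi/FB:dnAP-1* replicate 2. In the same order, the sites only in *Epi/FB:dnAP-1* numbered 5143, 5154, 5189 and 7171. The other overlap, merging, list length and position settings kept both counts within 1.5 times. The flank difference of 0.341 percentage points became 1.82 with 1 threshold on the deposited scale and lay between −2.26 and 0.169 with a library left out. It moved by less than the replicate spread of 1.18 under the remaining settings, with its sign turned to −0.0324 where a peak had to cover 50% of a site and to −0.0171 with flanks of 200 kb. Median width ranged from 3983 to 5506 bp, median percentile from 32.1 to 70.1 and median distance to shared sites from 23189 to 42000 bp, the highest of each with 1 threshold in steps. The share of members within 50 kb of another ranged from 13.0% to 27.4%. These ranges cover the settings other than a library left out. No paired analysis was possible because the results come from no test and the replicate numbers are not stated to mark shared fish.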
